A study of Mus musculus with 8 samples.

Results

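Transcripts of 40 ribosome biogenesis genes were followed through 8 RNA-seq libraries of mouse splenic B cells. The 40 are nucleolar processing and assembly factors and RNA polymerase I subunits, chosen by gene symbol from a list. They were chosen with earlier results of these data known. Each matched 1 of the 55401 gene rows in every file. By role they comprised 3 subunits of RNA polymerase I, 4 nucleolar organisers, 7 proteins of the small nucleolar ribonucleoproteins (snoRNPs), 12 assembly factors of the small ribosomal subunit and 14 of the large one. All 40 passed the filter on low counts in every comparison.

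The libraries formed 4 groups of 2. Knockout (KO) mice carried a B cell deletion of Jmjd1c, a gene for a histone demethylase with a Jumonji domain, and wild-type (WT) mice did not; all were C57BL/6. Germinal center B cells were sorted from KO and from WT spleens by flow cytometry. Activated B cells came from KO and WT spleens after a pan-B biotin and bead enrichment, followed by activation. Not given in the sources used here were the promoter that drove the deletion, the exons removed, the activating stimulus, the age of the mice and whether replicates came from separate mice. The p-values therefore reflect the spread between replicate libraries alone, and that spread may be technical.

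Ribosomes are built in the nucleolus. RNA polymerase I transcribes the precursor of most ribosomal RNA, snoRNPs modify and help to cut it, and a large set of assembly factors folds it with ribosomal proteins into a small and a large subunit. Germinal center B cells grow and divide quickly while they mutate their antibody genes, and growing lymphocytes need new ribosomes. The transcription factor MYC is known to raise the transcription of many genes of this pathway and binds the E-box CACGTG, a palindrome that reads alike on both strands.

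Promoter sequence was taken from RefSeq (GRCm38.p6), as windows of 250 bases before and 50 after each annotated start. Windows were found for 35 of the 40 genes, 39 windows in all, and not for Bop1, Rrp12, Npm1, Fbl and Rrs1. CACGTG lay in 8 of the 39 windows (20.5%), 1 per gene, against 9.94% of the 12599 windows of genes tested in WT cells and 7.15% of all 32851 windows. The 8 stretches are shown because they hold every match, each read 5′ to 3′ on the strand of its gene with CACGTG in capitals. They lie at chr10:13193092-13193121 (Ltv1, minus strand), chr11:72441355-72441376 (Mybbp1a, plus), chr6:125131811-125131840 (Nop2, plus), chr11:3963965-3963994 (Pes1, plus), chr11:74898092-74898121 (Tsr1, plus), chr10:88826765-88826789 (Utp20, minus), chr8:106893643-106893672 (Utp4, plus) and chr17:71616220-71616249 (Wdr43, plus).
Ltv1: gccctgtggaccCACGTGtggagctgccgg
Mybbp1a: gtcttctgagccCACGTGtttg
Nop2: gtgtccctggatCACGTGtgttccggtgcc
Pes1: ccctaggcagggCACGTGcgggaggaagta
Tsr1: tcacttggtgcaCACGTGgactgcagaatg
Utp20: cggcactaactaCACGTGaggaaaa
Utp4: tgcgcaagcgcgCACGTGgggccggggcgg
Wdr43: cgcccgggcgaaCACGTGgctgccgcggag

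Counting the start as position 0, the E-box began at position 2 in Pes1, 15 in Utp4, 17 in Wdr43, 24 in Tsr1, 28 in Ltv1, 37 in Utp20 and 40 in Mybbp1a. In Nop2 alone it lay before the start, at position -60. Also searched on both strands were the YY1 motif AAGATGGC, found in 0 of the 39 windows against 4.49% of the windows of genes tested in WT cells, and the TATA-box letters TATAAA, found in 2 of the 39 (5.13%) against 7.39%. No match of these motifs overlapped an E-box in the windows printed. Median GC content was 59.7% in the 39 windows and 60.3% in those of genes tested in WT cells. A match describes letters only and was not tested as a site of binding.

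The 250 bases before the start are printed for Nop2, at chr6:125131633-125131882 on the plus strand, as the gene with an upstream E-box, and for Bysl, at chr17:47611493-47611742 on the minus strand, as the gene with the greatest difference between KO and WT. Capitals mark the E-box of Nop2. None of the 3 motifs was found in the Bysl stretch.
Nop2: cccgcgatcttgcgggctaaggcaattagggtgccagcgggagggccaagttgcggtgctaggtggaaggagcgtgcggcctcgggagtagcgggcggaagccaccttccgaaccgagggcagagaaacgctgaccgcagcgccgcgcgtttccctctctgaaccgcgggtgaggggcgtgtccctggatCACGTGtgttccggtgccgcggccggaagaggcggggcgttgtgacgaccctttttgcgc
Bysl: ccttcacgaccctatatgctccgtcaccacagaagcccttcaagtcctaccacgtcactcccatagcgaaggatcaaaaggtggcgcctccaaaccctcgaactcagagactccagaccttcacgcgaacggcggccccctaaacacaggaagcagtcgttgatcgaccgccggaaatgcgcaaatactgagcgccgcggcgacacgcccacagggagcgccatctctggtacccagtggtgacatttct

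Libraries held 8777425 to 11414559 counts on genes, and the biological coefficient of variation was 2.26% over the germinal center libraries and 3.99% over the activated ones. Levels are given as CPM, the counts of a gene relative to the TMM-scaled size of its library. Jmjd1c stood at 163 and 158 CPM in KO against 194 and 178 CPM in WT germinal center B cells, and at 136 and 153 CPM in KO against 274 and 282 CPM in WT activated B cells, so both KO groups lay below their WT groups. Summed B cell markers (6 genes) ran from 6852 to 9655 CPM over all libraries. Summed germinal center markers (10 genes, all detected in every group) were 2160 and 2161 CPM in KO and 3885 and 3876 CPM in WT germinal center B cells, and 169 to 181 CPM in activated B cells. No marker list for activation was set. In activated B cells, markers of other cells were also present: the 8 neutrophil markers, none of them at 0, summed to 2292 and 1884 CPM in KO and 586 and 516 CPM in WT.

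Levels of different genes are compared only per kilobase of exon. On that scale nucleophosmin (Npm1), an abundant nucleolar histone and ribosome chaperone, was the highest of the 40 in every group, at 275.3 CPM per kb in KO and 274 in WT germinal center B cells, and at 251 in KO and 258 in WT activated B cells. Nucleolin (Ncl), which binds ribosomal RNA precursors, came next in every group, from 62.6 CPM per kb in KO activated to 102 CPM per kb in WT germinal center B cells. Wdr12, a subunit of the PeBoW complex of large subunit assembly, was the lowest in every group, from 1.69 CPM per kb in WT activated to 3.56 CPM per kb in KO germinal center B cells. The exon length in the annotation is 11955 bases for Wdr12 and 10188 for Ncl, against 2665 for Npm1. A long annotated exon length lowers a value per kilobase, so these ranks depend on the annotation.

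**Figure D1:**
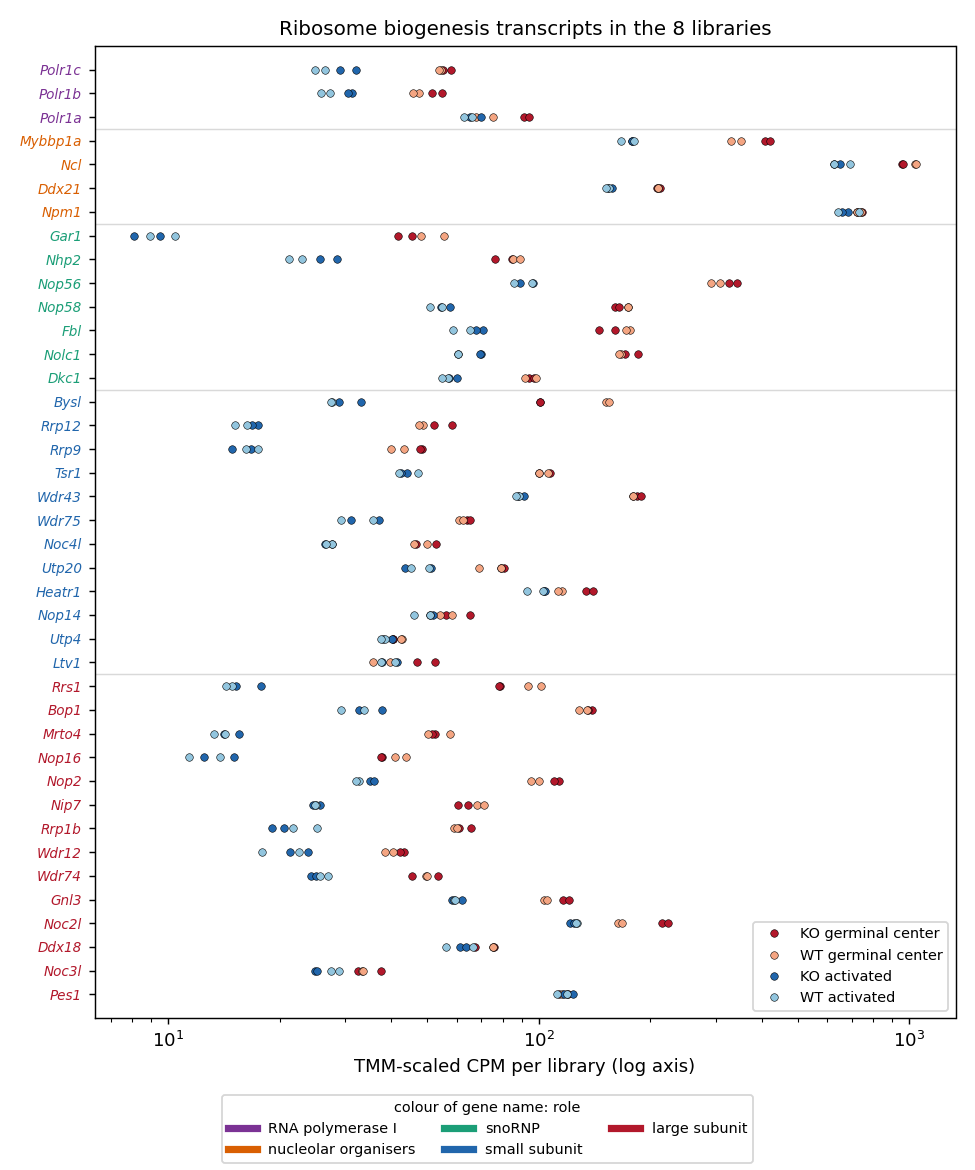
TMM-scaled CPM of the 40 genes (log axis, 1 point per library) with gene names coloured by role and ordered within a role by the WT fold change. Nearly all genes lie to the right in germinal center libraries (red and orange) of where they lie in activated libraries (blue), while KO and WT points of a cell type lie close together.

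Germinal center B cells were set against activated B cells to ask how the pathway differs between the states, first in WT. Of the 40 genes, 35 were higher in germinal center B cells (87.5%, against 40.3% of the 14426 genes tested) and 0 were lower (41.8% of genes tested were lower), with 0 lower also at an unadjusted p under 0.05 and by the DESeq2 Wald test. Both germinal center libraries lay above both activated ones for 37 genes (44.2% of genes tested) and below them for 0 (46.0%). The median log2 fold change was 0.96, against -0.03 over all genes tested. Levels were more than 2-fold higher in germinal center B cells for 19 of the 40 genes, against 19.9% of all genes tested. None of the 40 was more than 2-fold lower. Over all genes tested the lower quartile of the log2 fold change was -0.96, and the share more than 2-fold lower was not counted. Of the 40, 4 were more than 4-fold higher, for which no share of all genes was taken. Summed over the 40 genes, levels were 5640 and 5631 CPM in WT germinal center and 3358 and 3155 CPM in WT activated B cells, a ratio of 1.73. In such bulk libraries fewer cells of a type and less RNA per cell cannot be told apart.

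The states differed in more than their ribosome genes. Mki67, a proliferation marker named here outside the naming rule, averaged 2699 ± 79.2 CPM in WT germinal center and 69.3 ± 1.28 CPM in WT activated B cells (SD, n = 2 each). Neutrophil markers summed to at most 0.364 CPM in WT germinal center libraries, where 7 of the 8 were at 0, against 516 and 586 CPM in WT activated ones. The 12 monocyte and macrophage markers summed to 45.0 and 45.3 CPM in WT germinal center against 871 and 918 CPM in WT activated libraries, and 7 erythroid markers to 7.44 and 9.47 CPM against 633 and 638 CPM. The part of these cells in the results was not tested.

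Among the RNA polymerase I subunits, 2 of 3 were higher in WT germinal center B cells. Polr1c, a subunit shared with RNA polymerase III, had 54.6 and 53.6 CPM in WT germinal center and 26.5 and 24.9 CPM in WT activated libraries. Both germinal center libraries stood above both activated ones (log2 fold change 1.06, SE 0.09, edgeR adjusted p = 6.18e-25). Polr1b, the other large catalytic subunit, also rose (0.80, SE 0.09). Polr1a (ENSMUSG00000049553.11, chromosome 6, 71909053 to 71984935, plus strand, GRCm38), the largest subunit, which forms the catalytic core with Polr1b, had 74.99 and 67.7 CPM against 62.9 and 65.8 CPM and did not pass (0.14, SE 0.07, edgeR adjusted p = 0.058). It passed when GCB_WT replicate 2 was left out (0.24, adjusted p = 0.013).

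Of the 4 nucleolar organisers 3 were higher. Mybbp1a (ENSMUSG00000040463.16, chromosome 11, 72441355 to 72451768, plus strand, GRCm38), which encodes a Myb-binding nucleolar protein, had 352 and 330 CPM in WT germinal center against 167 and 180 CPM in WT activated libraries, with no overlap (log2 fold change 0.96, SE 0.05, edgeR adjusted p = 5.39e-46). Nucleolin had 1035 and 1044 CPM against 691 and 628 CPM (0.65, SE 0.05). The RNA helicase gene Ddx21 rose less (0.44, SE 0.05). Npm1 overlapped between the states, at 723 and 738 CPM in germinal center and 729 and 643 CPM in activated libraries (0.08, SE 0.05, edgeR adjusted p = 0.112); without PanB_WT replicate 1 it passed, at 0.16 (adjusted p = 0.000461).

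The snoRNP proteins had the highest median of the 5 role groups: all 7 were higher in WT germinal center B cells, with a median log2 fold change of 1.71. Together they summed to 1040 and 1054 CPM in WT germinal center against 367 and 340 CPM in WT activated libraries, a ratio of 2.96, where the nucleolar organisers had a ratio of 1.39. Box H/ACA snoRNPs guide pseudouridylation, and their core protein gene Gar1 (ENSMUSG00000028010.16, chromosome 3, 129824912 to 129831396, minus strand, GRCm38) had 48.2 and 55.4 CPM against 10.4 and 8.90 CPM (log2 fold change 2.42, SE 0.11, edgeR adjusted p = 3.70e-53). Nhp2, another H/ACA core gene, had 85.0 and 89.2 CPM against 23.0 and 21.2 CPM (1.97, SE 0.08). Germinal center levels of both genes were several times the activated ones in every library. Dkc1, the pseudouridine synthase of the same particle, differed least in the group (0.75, SE 0.07). Box C/D snoRNPs guide ribose methylation. Their core gene Nop56 reached 291 and 308 CPM in germinal center against 95.7 and 85.5 CPM in activated libraries (1.72, SE 0.05), its partner Nop58 differed about as much (1.71, SE 0.06), and the methyltransferase fibrillarin (Fbl) by 1.48 (SE 0.06). The snoRNP chaperone gene Nolc1 rose by 1.44 (SE 0.06).

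Among the small subunit factors 10 of 12 were higher, with a median of 0.87. The gene of bystin, Bysl (ENSMUSG00000023988.8, chromosome 17, 47599331 to 47611492, minus strand, GRCm38), a factor of late precursor processing, had 151 and 155 CPM in WT germinal center against 27.7 and 27.5 CPM in WT activated libraries (log2 fold change 2.46, SE 0.07, edgeR adjusted p = 1.40e-84). Its exons overlap those of Ccnd3 on the opposite strand over 9.37% of their length, and Ccnd3, the D-type cyclin gene, was itself higher in germinal center B cells (2.07). The strand setting of the counting is not given, so reads of the pair cannot be told apart there. Rrp12, an export factor, rose by 1.60 (SE 0.10), and Rrp9, a protein of the U3 snoRNP, by 1.30 (SE 0.10). Wdr75 (0.92, SE 0.08), Noc4l (0.81, SE 0.09), Utp20 (0.61, SE 0.07), Heatr1 (0.21, SE 0.06) and Nop14 (0.20, SE 0.08) rose as well. Nop14 did not pass without GCB_WT replicate 1 (adjusted p = 0.105) or PanB_WT replicate 2 (0.225). Wdr43, a component of the early processome, had 179 and 180 CPM in germinal center and 88.2 and 87.0 CPM in activated libraries (1.03, SE 0.06). Ltv1 (ENSMUSG00000019814.5, chromosome 10, 13178140 to 13193168, minus strand, GRCm38), a factor of late small subunit maturation, overlapped between states, at 39.7 and 35.8 CPM against 40.9 and 37.6 CPM (-0.07, SE 0.09), and Utp4 did not pass either (0.16, SE 0.08). Tsr1 rose by 1.19, but 32.3% of its exon length overlaps Srr on the opposite strand, so its value is uncertain.

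Of 14 large subunit factors 13 were higher, with a median of 1.14. Rrs1 (ENSMUSG00000061024.8, chromosome 1, 9545408 to 9547455, plus strand, GRCm38), whose product helps to build the central protuberance of the large subunit, had 101 and 93.5 CPM in WT germinal center against 14.8 and 14.3 CPM in WT activated libraries. This was the greatest fold change of the 40 genes (log2 2.72, SE 0.09, edgeR adjusted p = 2.16e-75). Bop1 of the PeBoW complex had 134 and 128 CPM against 33.8 and 29.3 CPM (2.05, SE 0.07), and its partner Wdr12 rose by 0.95 (SE 0.10). The third PeBoW subunit gene, Pes1, overlapped between the states, with 119 and 116 CPM in germinal center and 119 and 112 CPM in activated libraries (0.01, SE 0.06). Others that rose included Mrto4 (1.97), Nop16 (1.74), the RNA methyltransferase gene Nop2 (1.58), Nip7 (1.47), Rrp1b (1.33), Wdr74 (0.90), nucleostemin (Gnl3, 0.80), Ddx18 (0.29) and Noc3l (0.24). Ddx18 did not pass without PanB_WT replicate 2 (adjusted p = 0.0541), nor did Noc3l without PanB_WT replicate 1 (0.106). Noc2l (ENSMUSG00000095567.8, chromosome 4, 156236010 to 156247616, plus strand, GRCm38) had 164 and 167 CPM against 127 and 126 CPM (0.38, SE 0.05), and 20.9% of its exon length overlaps Samd11 on the opposite strand.

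The median of the 40 lay 0.99 above that of all genes in WT and 1.01 in KO, with TMM and with total counts. A change of scaling shifts all genes by about the same amount. This difference therefore could not change, and it is no check of the scaling. Under every alternative tried 31 of the 35 calls stood, and those of Nop14, Heatr1, Noc3l and Ddx18 were lost under at least 1. With total counts 32 genes were higher and 1 lower, Ltv1 (-0.19, edgeR adjusted p = 0.0364). Of all 14426 genes tested, 5281 were then higher and 6626 lower, in place of 5816 and 6036.

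**Figure D2:**
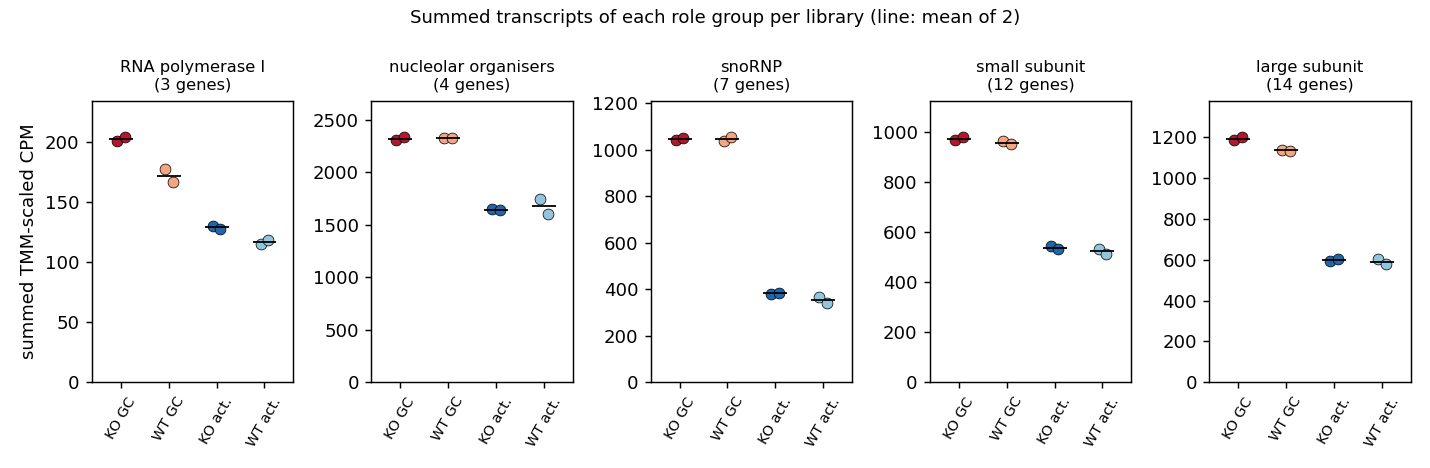
Summed TMM-scaled CPM of each role group, 1 point per library and a line at the mean of 2, with KO left of WT in germinal center (GC) and activated (act.) B cells. The snoRNP sum is highest relative to activated cells, at 1047 CPM in WT germinal center against 353 CPM in WT activated libraries, and KO and WT sums of one cell type differ little except for RNA polymerase I.

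The same comparison within KO cells, which shares no library with the first, gave 38 genes higher in germinal center B cells (95%, against 39.2% of the 14307 genes tested) and 0 lower (39.5% of genes tested were lower), as also at an unadjusted p under 0.05 and by the DESeq2 Wald test. Both germinal center libraries lay above both activated ones for 39 genes (43.9% of genes tested) and below them for 0 (44.7%). The median log2 fold change was 0.996, against -0.02 over all genes. All 35 genes higher in WT were among the 38. Summed levels were 5704 and 5770 CPM in KO germinal center and 3292 and 3288 CPM in KO activated libraries, a ratio of 1.74. Gar1 (2.32, SE 0.12), Rrs1 (2.25, SE 0.09) and Bop1 (1.97, SE 0.07) had the greatest fold changes. Polr1a, Npm1 and Ltv1 passed in KO (0.47, 0.14 and 0.33), while Utp4 (0.06) and Pes1 (-0.04) did not. Calls of 34 of the 38 stood under every alternative tried; those of Npm1, Nop14, Ltv1 and Ddx18 did not. Without GCB_KO replicate 1 Nop14 did not pass (adjusted p = 0.153), and Ddx18 did not pass without GCB_KO replicate 2 (0.208) or PanB_KO replicate 1 (0.0506). Npm1 changed sign to -0.04 with total counts and no TMM (adjusted p = 0.433), and without GCB_KO replicate 2 it did not pass (0.14, adjusted p = 0.0758). Markers of other cells again differed, with neutrophil markers at 1.95 and 1.90 CPM in KO germinal center against 2292 and 1884 CPM in KO activated libraries, and their part was not tested.

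**Figure D3:**
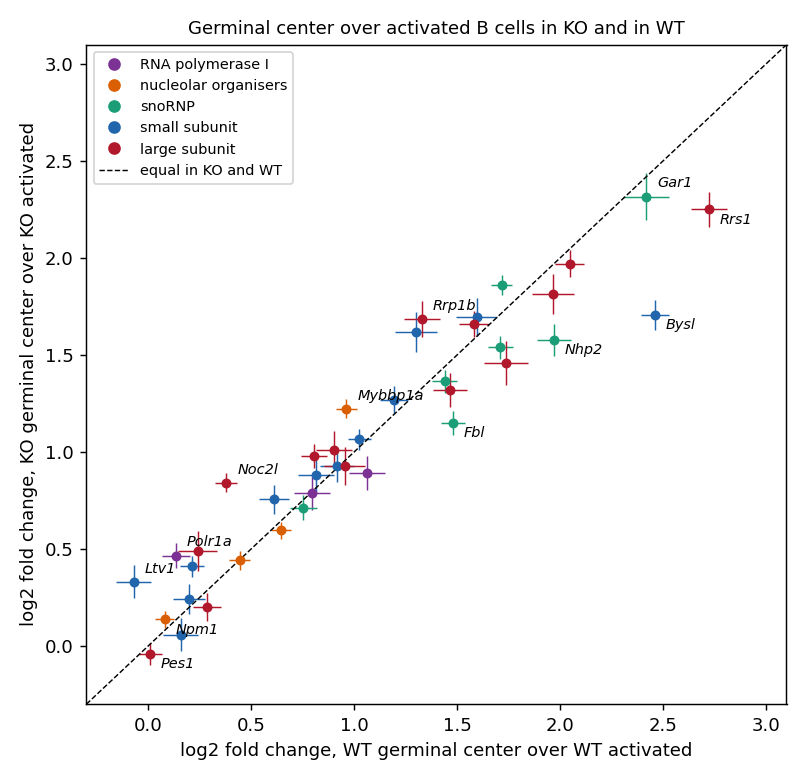
Log2 fold change of germinal center over activated B cells in KO libraries (vertical) and in WT libraries (horizontal), with SE bars and 1 point per gene, coloured by role. Points lie near the dashed line of equal fold change, with Bysl, Rrs1, Nhp2 and Fbl below it and Noc2l, Ltv1, Polr1a, Mybbp1a and Rrp1b above it.

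KO was then set against WT within germinal center B cells, to ask whether the pathway differs between the genotypes. The Jmjd1c transcript itself was only slightly lower in KO there (log2 fold change -0.20, SE 0.04), against -0.94 (SE 0.06) in activated B cells. The summed level was 5704 and 5770 CPM in KO against 5640 and 5631 CPM in WT, a ratio of 1.02. Single genes moved both ways: 12 of 40 were higher in KO (30%, against 25.1% of the 13350 genes tested) and 5 were lower (12.5%, against 25.1%), and 23 did not pass. The share of higher genes was thus near that of all genes. Both KO libraries lay above both WT libraries for 18 genes (36.1% of genes tested) and below them for 10 (36.6%). The median log2 fold change was 0.06, against -0.004 over all genes, and the range ran from -0.60 to 0.41, so no gene of the 40 differed by 2-fold. With total counts and no TMM the split was 8 higher and 9 lower. Of the 13350 genes tested, 2938 were then higher and 3953 lower, and their median moved to -0.06.

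KO and WT germinal center libraries differed in other ways that were not tested as a part of these results. Germinal center markers summed to 2160 and 2161 CPM in KO against 3885 and 3876 CPM in WT, while the 8 plasma cell markers summed to 845 and 850 CPM against 695 and 715 CPM. Jchain, part of the plasma cell sum, averaged 493 CPM in KO and 497 CPM in WT. Of the 7 plasma cell markers tested, 5 were higher in KO and 0 lower, with a median log2 fold change of 1.36. Mitochondrially encoded genes took 9.20% and 9.52% of counts in KO against 5.51% and 5.27% in WT. Monocyte and macrophage markers summed to 126 and 144 CPM against 45.3 and 45.0 CPM, and erythroid markers to 62.0 and 76.2 CPM against 7.44 and 9.47 CPM. Mki67 averaged 2236 ± 18.1 CPM in KO and 2699 ± 79.2 CPM in WT (SD, n = 2 each).

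Of the RNA polymerase I subunits, 2 of 3 rose in KO. The 3 subunits summed to 201 and 204 CPM in KO and 177 and 167 CPM in WT germinal center libraries, a ratio of 1.18, with no overlap. The sum covers only these 3 genes. Of 18 other RNA polymerase I subunits and initiation factors, 2 were higher and 5 lower in KO (25.1% of genes tested each way). Polr1a had 91.3 and 94.1 CPM in KO against 74.99 and 67.7 CPM in WT (log2 fold change 0.38, SE 0.06, edgeR adjusted p = 2.78e-09). Polr1b had 51.5 and 54.8 CPM against 47.5 and 45.6 CPM (0.20, SE 0.08, edgeR adjusted p = 0.0256), and Polr1c did not pass (0.07, SE 0.07). Without GCB_KO replicate 2 or GCB_WT replicate 2 the call of Polr1b was lost (adjusted p = 0.203 and 0.186).

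Of the nucleolar organisers Mybbp1a rose, at 408 and 420 CPM in KO against 352 and 330 CPM in WT (log2 fold change 0.28, SE 0.04, edgeR adjusted p = 2.06e-14). Nucleolin fell slightly, at 958 and 960 CPM against 1035 and 1044 CPM (-0.11, SE 0.03, edgeR adjusted p = 0.000754). Neither gene overlapped between KO and WT. Npm1 and Ddx21 stood at 0.01 each (SE 0.03 and 0.04) and did not pass.

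The snoRNP proteins split. Nop56 rose, with 327 and 343 CPM in KO against 291 and 308 CPM in WT (log2 fold change 0.16, SE 0.04), and so did Nolc1 (0.11, SE 0.04). Gar1 fell to 45.5 and 41.7 CPM in KO, against 48.2 and 55.4 CPM in WT (-0.25, SE 0.08, edgeR adjusted p = 0.00423), and Fbl fell to 161 and 145 CPM, against 176 and 172 CPM (-0.19, SE 0.05). Their sum was 1042 and 1053 CPM in KO and 1040 and 1054 CPM in WT, a ratio of 1.001. The calls of Gar1, Fbl and Nolc1 depended on single libraries: without GCB_KO replicate 2 none of them passed (adjusted p = 0.106 for Gar1, 0.109 for Fbl and 0.544 for Nolc1), nor did Gar1 without GCB_WT replicate 2 (0.238). Nolc1 also did not pass without GCB_WT replicate 1 (0.0503) or GCB_WT replicate 2 (0.162).

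Among small subunit factors 4 of 12 rose and 1 fell. Bysl had 101 and 101 CPM in KO against 151 and 155 CPM in WT, the greatest KO difference of the 40 genes (log2 fold change -0.60, SE 0.05, edgeR adjusted p = 2.43e-30). The overlapping Ccnd3 fell as well, to 230 CPM in KO against 428 CPM in WT (-0.89), and how far its reads enter the Bysl count was not tested. Ltv1 had 46.8 and 52.5 CPM in KO against 39.7 and 35.8 CPM in WT (0.40, SE 0.08, edgeR adjusted p = 5.12e-06). Heatr1, a large scaffold of the early processome, had 134 and 140 CPM against 116 and 113 CPM (0.27, SE 0.05). Rrp9 (0.21, SE 0.08) and Rrp12 (0.21, SE 0.08) also rose. The call of Rrp9 was lost without GCB_KO replicate 1, GCB_KO replicate 2 or GCB_WT replicate 1 (adjusted p = 0.0829, 0.0617 and 0.188), and that of Rrp12 without GCB_KO replicate 2 or GCB_WT replicate 2 (0.291 and 0.113). Wdr43 had 184 and 189 CPM in KO and 179 and 180 CPM in WT (0.06, SE 0.04) and did not pass.

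Among large subunit factors 3 of 14 rose and 1 fell. Noc2l had 215 and 223 CPM in KO against 164 and 167 CPM in WT (log2 fold change 0.41, SE 0.04, edgeR adjusted p = 2.14e-20). Samd11, which overlaps it on the opposite strand, also rose, at 69.8 CPM in KO against 52.9 CPM in WT (0.40), so reads of the pair cannot be told apart there. Rrs1 fell to 78.7 and 78.1 CPM in KO, against 101 and 93.5 CPM in WT (-0.31, SE 0.06, edgeR adjusted p = 1.50e-06). Nop2 (0.19, SE 0.06) and the nucleolar GTPase gene Gnl3 (0.19, SE 0.05) rose. The PeBoW genes Bop1 (0.07), Pes1 (-0.01) and Wdr12 (0.12) did not pass.

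Calls held unevenly. Under every alternative tried, 9 of the 17 calls stood: Polr1a, Mybbp1a, Nop56, Heatr1, Ltv1 and Noc2l higher and Ncl, Bysl and Rrs1 lower. With the DESeq2 Wald test 6 genes were higher in place of 12. Of all 13350 genes tested, 2277 were then higher in place of 3346.

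**Figure D4:**
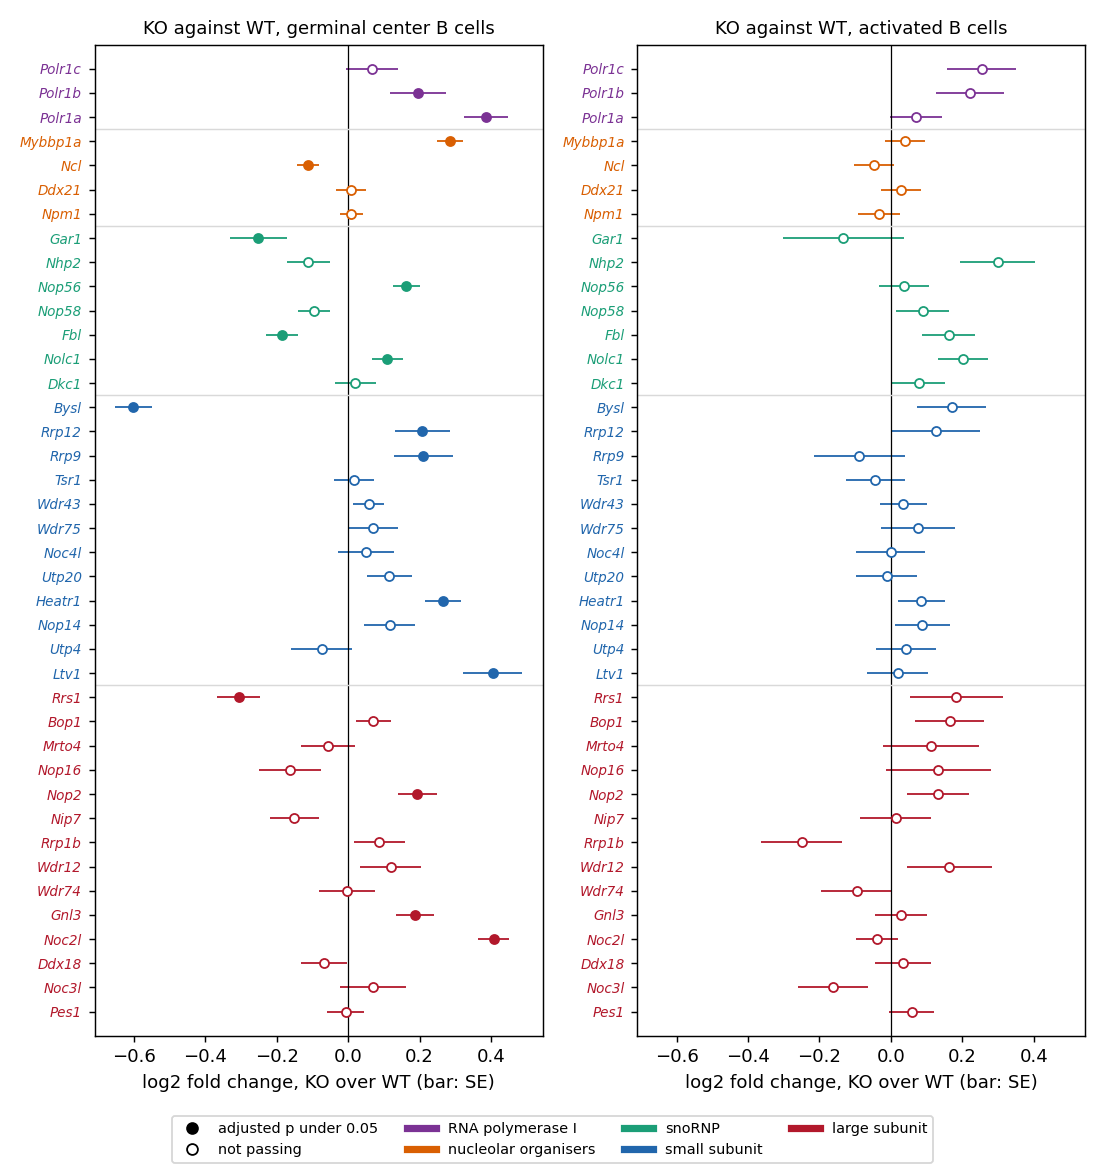
Log2 fold change of KO over WT for the 40 genes in germinal center (left) and activated B cells (right), with SE bars; filled points passed at an adjusted p under 0.05. Filled points lie on both sides of 0 on the left, from Bysl at -0.60 to Noc2l at 0.41, and none is filled on the right.

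In activated B cells KO against WT gave 0 genes higher and 0 lower of the 40, where 4.85% and 1.42% of the 14110 genes tested were called by edgeR. At an unadjusted p under 0.05 there were 6 of 40 (15%, against 18.3% of genes tested), of which 5 were higher, and the DESeq2 Wald test also called 0. Both KO libraries lay above both WT libraries for 13 genes (24.5% of genes tested) and below them for 4 (23.2%). Summed levels were 3292 and 3288 CPM in KO and 3358 and 3155 CPM in WT, a ratio of 1.01. The log2 fold changes ran from -0.25 for Rrp1b (SE 0.11, edgeR adjusted p = 0.23) to 0.30 for Nhp2 (SE 0.10, edgeR adjusted p = 0.0965), with a median of 0.05. The SE of these values ran higher than in germinal center B cells, and a p that misses the threshold does not show that levels were equal.

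By role, the RNA polymerase I sum was 130 and 128 CPM in KO and 115 and 118 CPM in WT activated libraries, a ratio of 1.11, with Polr1c at 0.25 (SE 0.10), Polr1b at 0.22 (SE 0.09) and Polr1a at 0.07 (SE 0.07). The snoRNP sum was 379 and 385 CPM in KO and 367 and 340 CPM in WT, a ratio of 1.08. Nolc1 had 69.6 and 69.4 CPM in KO against 60.6 and 60.5 CPM in WT (0.20, SE 0.07), the lowest adjusted p of the 40 (edgeR, 0.0916), and it passed in a fit of all 8 libraries (adjusted p = 0.0441). Nhp2 had 28.5 and 25.7 CPM against 23.0 and 21.2 CPM. Among the organisers Ncl (-0.05, SE 0.06), Npm1 (-0.03, SE 0.06) and Mybbp1a (0.04, SE 0.06) overlapped between KO and WT. Bysl stood at 0.17 (SE 0.10), Rrs1 at 0.18 (SE 0.13) and Noc2l at -0.04 (SE 0.06). Neutrophil markers summed to 2292 and 1884 CPM in KO against 586 and 516 CPM in WT activated libraries, monocyte and macrophage markers to 1511 and 1393 CPM against 918 and 871 CPM, and erythroid markers to 1124 and 933 CPM against 638 and 633 CPM; their part was not tested.

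Whether the KO effect differed between the states was tested as the KO effect in germinal center minus that in activated B cells, over all 8 libraries. It was higher in germinal center B cells for 5 genes (12.5%, against 17.5% of the 14992 genes tested) and lower for 4 (10%, against 13.8%), so the shares lay below those of all genes. Bysl had the greatest difference, at -0.77 (SE 0.11, edgeR adjusted p = 4.22e-09), followed by Rrs1 at -0.49 (SE 0.14, edgeR adjusted p = 0.00356). Noc2l (0.44, SE 0.07), Ltv1 (0.38, SE 0.12), Rrp1b (0.34, SE 0.13), Polr1a (0.31, SE 0.10) and Mybbp1a (0.24, SE 0.07) differed upwards, and Nhp2 (-0.41, SE 0.12) and Fbl (-0.35, SE 0.09) downwards. Under every alternative tried, the differences of Fbl, Bysl and Noc2l passed. The call of Rrs1 was lost without PanB_KO replicate 2 (adjusted p = 0.0853) and that of Polr1a without GCB_WT replicate 2 (0.0692). Nhp2 did not pass without GCB_KO replicate 2, PanB_KO replicate 1 or PanB_WT replicate 2 (0.0542, 0.0611 and 0.0738). Ltv1 did not pass without GCB_KO replicate 2, GCB_WT replicate 2, PanB_KO replicate 1 or PanB_WT replicate 1 (0.105, 0.0714, 0.0641 and 0.0639). Rrp1b did not pass without GCB_KO replicate 1, GCB_WT replicate 1, PanB_KO replicate 1 or PanB_WT replicate 2 (0.159, 0.0725, 0.168 and 0.266).

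Of the genes with an E-box in the promoter window, 5 of 8 were higher in WT germinal center than in WT activated B cells, with a median log2 fold change of 0.79. Of the 27 with a window and no E-box, 26 were higher, with a median of 0.92. Myc itself had 66.5 and 72.1 CPM in WT germinal center and 71.4 and 72.1 CPM in WT activated libraries and did not pass (-0.06, SE 0.07, edgeR adjusted p = 0.413). It had 124 and 117 CPM in KO germinal center B cells, with no overlap with WT (0.80, SE 0.06, edgeR adjusted p = 1.66e-41). In activated B cells Myc had 75.3 and 87.0 CPM in KO against 71.4 and 72.1 CPM in WT (0.18, SE 0.07, edgeR adjusted p = 0.172), and the KO effects differed by 0.62 (SE 0.09, edgeR adjusted p = 2.18e-08).

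Other genes of the pathway were read from lists that were, like the 40, chosen with results of these data known. In WT germinal center against WT activated B cells, where 40.3% of all genes tested were higher and 41.8% lower, the lists together had 175 higher (69.2%) and 40 lower (15.8%) of 253. Of these, 10 of 18 other genes of RNA polymerase I and its initiation factors were higher and 0 lower, led by Ubtf, which binds ribosomal DNA (1.80, SE 0.05). Other small subunit factors were higher for 30 and lower for 2 of 38, and other large subunit factors for 38 and 4 of 46, with Ppan at 2.26 (SE 0.06) and Ddx54 at 1.65 (SE 0.05). All 13 genes of snoRNP assembly and all 13 of the RNA exosome, which trims precursors, were higher, including Rpap3 (2.11, SE 0.08), the ATPase gene Ruvbl1 (2.07, SE 0.08), Exosc3 (2.06, SE 0.09) and Exosc9 (2.01, SE 0.08). Host genes of snoRNAs were higher for 9 and lower for 2 of 14, with Snhg5 at 2.83 (SE 0.08) and Gas5 at 1.12 (SE 0.06). Genes of RNA polymerase III were higher for 15 and lower for 3 of 22. Cytosolic ribosomal proteins were more mixed, with 46 higher and 22 lower of 79, and their many near-identical copies make single values uncertain. In the MYC network 1 was higher and 7 were lower of 10, with the MYC antagonist gene Mxi1 at -4.39 (SE 0.11) and Mxd1 at -1.97 (SE 0.14).

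In KO against WT germinal center B cells, where 25.1% of all genes tested were higher and 25.1% lower, these lists together had 48 higher (19.0%) and 61 lower (24.2%) of 252. No list was tested against other genes. Other large subunit factors were higher for 13 and lower for 6 of 46, with Mdn1, a giant assembly ATPase, at 0.40 (SE 0.04) and Ppan at 0.36 (SE 0.04). Other small subunit factors were higher for 9 and lower for 5 of 38, with Pwp2 at 0.31 (SE 0.07) and the RNA acetyltransferase gene Nat10 at 0.25 (SE 0.06). Genes of snoRNP assembly were higher for 2 and lower for 7 of 13: Rpap3 fell to 58.0 ± 0.853 CPM in KO, against 85.6 ± 0.828 CPM in WT (SD, n = 2 each; log2 fold change -0.56, SE 0.07), and Ruvbl1 (-0.40, SE 0.06), Ruvbl2 (-0.36, SE 0.05) and Snu13 (-0.25, SE 0.06) fell too. The exosome had 0 higher and 4 lower of 13, namely Exosc3 (-0.55, SE 0.07), Exosc9 (-0.55, SE 0.06), Exosc8 (-0.33, SE 0.05) and Exosc1 (-0.19, SE 0.08). Of other RNA polymerase I genes 2 were higher and 5 lower of 18, with Taf1c at 0.54 (SE 0.07) and Ubtf at -0.25 (SE 0.04).

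Read against the same 25.1% higher and 25.1% lower, cytosolic ribosomal protein genes in KO germinal center B cells were higher for 6 and lower for 26 of 79, with Rpl5 at -0.24 (SE 0.03) and Rpl36 at 0.28 (SE 0.04). Genes of RNA polymerase III were higher for 6 and lower for 6 of 22, with its initiation factor gene Brf1 at 0.58 (SE 0.05). Hosts of snoRNAs were higher for 5 and lower for 1 of 13, and the MYC network for 5 and 1 of 10. In activated B cells, where 4.85% of all genes tested were higher and 1.42% lower in KO, the same lists had 1 higher (0.395%) and 2 lower (0.791%) of 253: Gtf3c2 (-0.25, SE 0.07, edgeR adjusted p = 0.0475), Mxd1 (0.40, SE 0.09) and Rps20 (-0.25, SE 0.07). All other tested genes of these lists did not pass there.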

How the data were processed

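The authors deposited 1 table of raw read counts per library. The submitters' processing notes name Trimmomatic, DESeq2 and mm10; the aligner, counter and strandedness were not given in the sources used here. Sample titles gave the groups and replicate numbers. In each file, 5 summary entries that name no gene (56.7% to 59.5% of all counts in the file) stayed out of library sizes and tests. Of 55401 identifiers, 55141 are in GENCODE M21 (GRCm38), which gave coordinates and exon overlaps. A level of 1 CPM rests on 8.78 to 11.4 counts.

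Differences were tested with edgeR 4.0.16 in R 4.3.3 (TMM, filterByExpr, quasi-likelihood F test, Benjamini-Hochberg over all genes tested, adjusted p under 0.05), from the 4 libraries of each comparison or, for the difference of KO effects, all 8. The procedure was also run on simulated counts with 200 changed genes. More genes than that were called in each comparison here, so the run does not check the calls under these conditions. Alternatives were other scalings, DESeq2 1.42.0, no filter, mitochondrial genes left out, all libraries in 1 fit, a replicate block and each library left out. Printed CPM use 1 TMM scaling over all 8 libraries. Each SE, also in the figures, is the absolute log2 fold change divided by the square root of its F statistic. It was thus derived from the test and not estimated separately. Replicate counts differed by more than sampling noise (chi-square per degree of freedom 1.39 to 2.40). The members and lists were chosen with earlier results of these data known. Genes named with full values are, per role and comparison, the 1 or 2 with the greatest absolute log2 fold change and the 1 with the highest CPM, up to 4 of lowest p per other list, and Jmjd1c and Myc; Ccnd3, Samd11, Srr and Mki67 and further members were named after their values were seen. Of 361 listed symbols 358 matched.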

Additional observations from a re-analysis of the deposited data

Results flagged for a closer look

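The KO effect differed between germinal center and activated B cells, by a test of the difference itself over all 8 libraries, for 9 of the 40 genes. It was higher in germinal center B cells for 5 (12.5%, against 17.5% of the 14992 genes tested) and lower for 4 (10%, against 13.8%). These shares lay below those of all genes. Only the calls of Fbl, Bysl and Noc2l stood under every alternative tried. As the effect in germinal center minus that in activated B cells on the log2 scale, the differences were 0.313 for Polr1a, 0.2436 for Mybbp1a, 0.3842 for Ltv1, 0.3366 for Rrp1b and 0.4443 for Noc2l, and -0.349 for Fbl, -0.4111 for Nhp2, -0.7722 for Bysl and -0.4918 for Rrs1. For Bysl and Noc2l the gene on the opposite strand, Ccnd3 and Samd11, had KO effects of the same sign in germinal center B cells (-0.89 and 0.40), and its part in the difference was not tested.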

How the results depend on the processing

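Counts of called genes moved by over 1.5 times under few alternatives. With the DESeq2 Wald test, higher genes were 6 in place of 12 in germinal center KO against WT, and 1 in place of 5 in the difference of KO effects. Over all genes tested they were then 2277 in place of 3346 of 13350, and 1678 in place of 2621 of 14992. With total counts and no TMM, lower genes were 9 in place of 5 in germinal center KO against WT, where the all-gene median moved to -0.06. Between states they were 1 in place of 0 in WT (Ltv1) and in KO (Pes1, -0.22), where Npm1 reversed to -0.0376. All-gene medians between states then moved to -0.16 in WT and -0.19 in KO. Lower genes over all genes tested were then 6626 in place of 6036 in WT and 6605 in place of 5655 in KO. In 1 fit of all 8 libraries activated KO against WT had 1 higher gene, Nolc1. Leaving out 1 library at a time gave 9 to 11 higher and 3 to 6 lower genes in germinal center KO against WT, and 3 to 5 higher genes in the difference of KO effects. The lone library of an arm was then assumed to vary like the others.

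With the replicate number as a block, activated KO against WT had 1 higher gene (Nolc1, 0.20, adjusted p = 0.0492) in place of 0, and the other counts were 12 and 5, 35 and 0, 38 and 0, and 5 and 4. Replicate differences of libraries with the same number were not correlated (r from -0.0197 to 0.0139 across genes). Sampling noise enters these differences, so whether such libraries share more than a number cannot be told. The cause of these shifts was not tested.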
